A study of Mus musculus with 18 samples.

Results

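The retinal pigment epithelium (RPE) of wild-type mice was profiled by RNA sequencing in 2 sets of 3 libraries, and these 2 control sets were set against each other. The BL6J set comprised the libraries BL6J_7, BL6J_8 and BL6J_9, which are C57BL/6 replicates 4 to 6, and the B6J_23 set comprised B6J_23_1, B6J_23_2 and B6J_23_3, replicates 1 to 3. These 6 libraries were chosen by their column names out of 18 libraries in the series, and genes were kept where the normalized count was at least 10 in at least 3 of the 6, which left 18644 of 55333 named genes. Both sets carry the genotype label C57BL/6J, come from postnatal day 25 and 1 h after light onset, were used directly ex vivo with no treatment, and were measured as polyA RNA purified with the same column kit. The labels do not say what the mark 23 stands for, and they give neither sex, pooling of animals, collection date nor sequencing run for either set. The same table holds 3 Tyro3-/-V1 and 3 Mertk-/-V2Tyro3-/-V2 libraries, all of which carry the mark 23. The V1 and V2 alleles are not described further in the labels. The comparison asks how far 2 sets of control tissue with 1 description differ, and which genes the difference falls on.

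The RPE is a pigmented epithelial monolayer between the photoreceptors and the choroid. It regenerates the visual chromophore in the visual cycle, moves ions and nutrients between blood and retina, and each day takes up the shed tips of photoreceptor outer segments. In a dissected eye it touches neural retina on its apical side and choroid, with its vessels, on its basal side, while lens, ciliary body, conjunctiva, cornea, eye muscle and optic nerve lie close by. RNA of such neighbours can be in a bulk RPE sample.

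Markers of the RPE were detected in both sets. All 20 visual cycle genes and all 38 genes of RPE identity and transport on the lists were kept. All 24 genes of the lens list and all 14 of the cone list were kept too, so being kept does not tell RPE from its neighbours. Rpe65, the isomerase of the visual cycle, had normalized counts of 80332, 58354 and 68265 in BL6J libraries, against 85451, 105278 and 87327 in B6J_23 libraries. Values throughout are the authors' normalized counts, listed in the order BL6J_7, BL6J_8, BL6J_9 and then B6J_23_1, B6J_23_2, B6J_23_3, and they are not divided by gene length. The Y-linked gene Ddx3y was at 2666, 2533 and 2567 in BL6J and 2524, 2322 and 2609.5 in B6J_23, and Xist, the X-inactivation RNA, was at 20.4, 27.5 and 34.5 in BL6J and 24.2, 25.8 and 34.0 in B6J_23, and the sets overlapped for both. Beyond the 2 most abundant members of each list and a few genes fixed by name, the genes given below were chosen after their values were seen.

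Depth differed with the set. The recovered read totals were 14135502, 18263609 and 15517489 in BL6J, against 30191733, 23414164 and 27556358 in B6J_23, so every BL6J library was shallower than every B6J_23 library. Thinned in calculation to the depth of the shallowest library, 14135502 reads, the BL6J libraries held more detected genes, at 25848, 26593 and 26725 in BL6J and 25161, 25329 and 25599.8 in B6J_23; without thinning the numbers were 25848, 27402 and 27028 in BL6J and 27445, 26904 and 27660.0 in B6J_23 and overlapped. The 100 most abundant genes took 22.7, 20.1 and 22.9% in BL6J and 24.1, 24.6 and 24.0% in B6J_23, a smaller share in each BL6J library. Of 11 library measures, 9 did not overlap between the sets. An exact two-sided permutation test of 3 against 3 libraries cannot go below p = 0.1, which these 9 reached (adjusted p = 0.122 by the Benjamini-Hochberg method). The measures of pseudogenes, of mitochondrial genes and their copies, and of a ribosomal RNA gene were not planned. The count of 9 is therefore a description. Depth, the mark 23 and set coincide in these 6 libraries and cannot be told apart.

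BL6J_7 stood apart from the other two libraries of its set. Across the 18644 genes, its Spearman correlation was 0.971 with BL6J_8 and 0.972 with BL6J_9, but 0.979, 0.986 and 0.987 with the B6J_23 libraries, while BL6J_8 and BL6J_9 correlated at 0.992 with each other. These are correlations across genes, which are not independent replicates. The first principal component, with 64.2% of the variance, placed BL6J_8 and BL6J_9 at 67.7 and 67.2, BL6J_7 at -5.39, and the B6J_23 libraries at -74.3, -32.2 and -23.1. Results are therefore given with and without BL6J_7.

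No gene passed the threshold when all 6 libraries were compared. Limma on log2 of the normalized count plus 1 called 0 of 18644 genes (0%) at an adjusted p under 0.05 in either direction, although 5917 genes (31.7%) had an unadjusted p under 0.05. edgeR on the recovered reads also called 0, with 5872 genes (31.5%) at an unadjusted p under 0.05. DESeq2 on the same reads called 1687 genes higher in BL6J (9.05%) and 1007 lower (5.4%). Without BL6J_7, limma called 2551 genes higher (13.7%) and 3193 lower (17.1%), whereas leaving out any 1 of the other 5 libraries gave 0 calls. BL6J_7 was the BL6J library nearest to B6J_23, so its removal widens the gap between the sets and favours calls, and the adjusted p-values without it are given below as a description. With the spread estimated from all 12 libraries of the table, 35 genes were higher (0.188%) and 0 lower. In the text below a gene is therefore described by its 6 values, by whether the 2 sets overlap, and by its test without BL6J_7. Over all genes, the sets did not overlap for 3283 genes that were higher in BL6J (17.6%) and 3465 that were lower (18.6%), and the median log2 fold change, BL6J over B6J_23, was -0.013. These shares are the background for each count below. They depend on the scaling: scaled by library total, the median was 0.13, and 5049 genes were higher and 1675 lower without overlap.

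**Figure D1:**
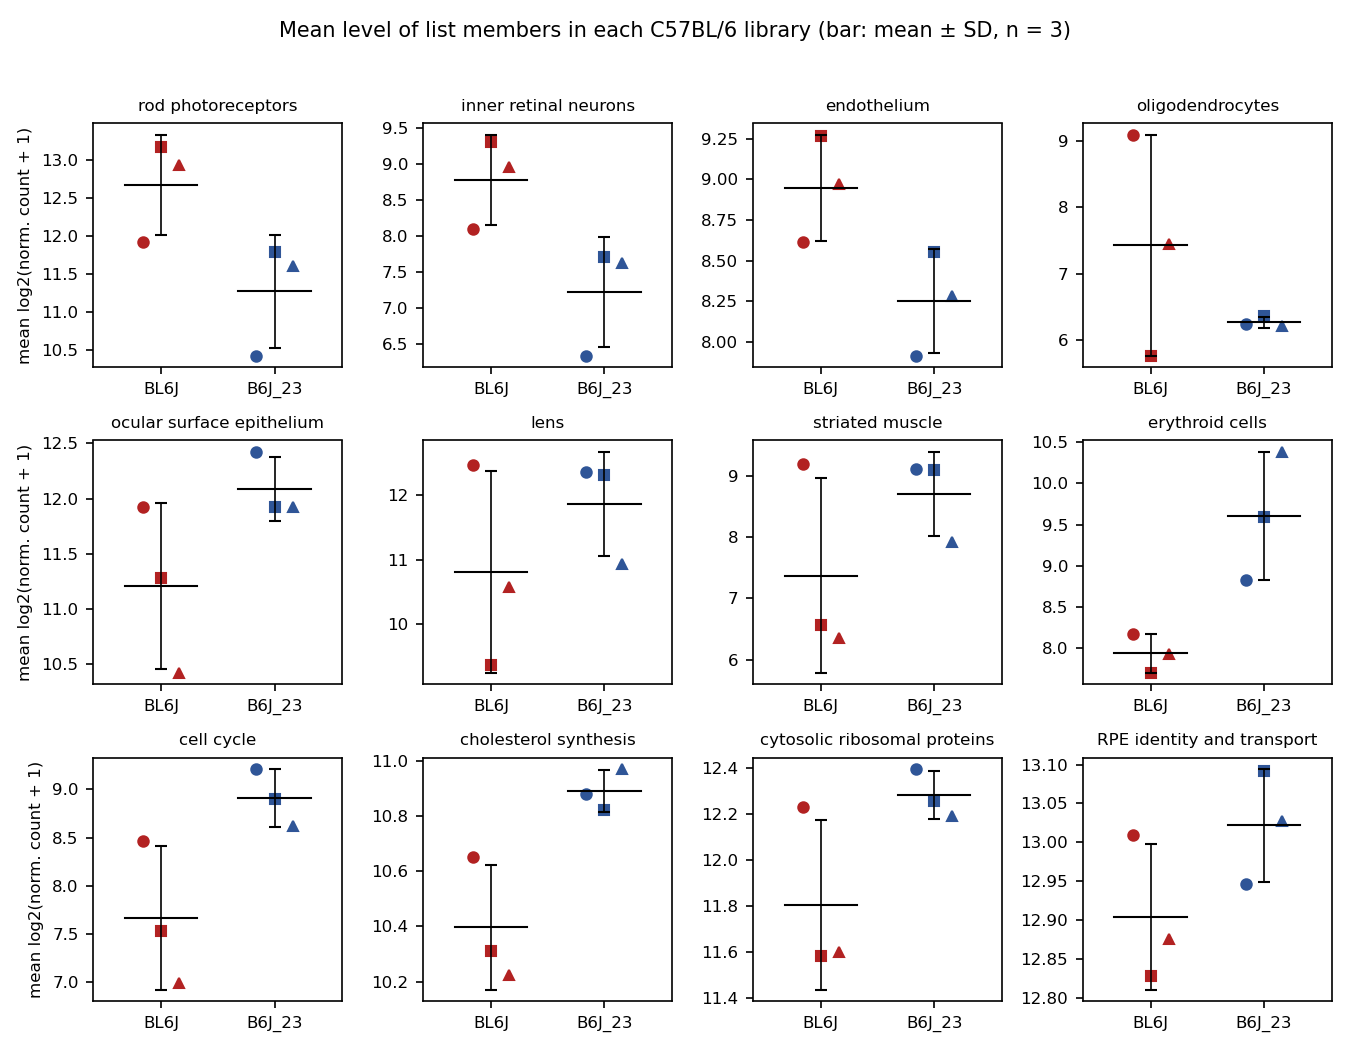
Mean log2(normalized count + 1) of the kept members of 12 gene lists in each C57BL/6 library, BL6J on the left and B6J_23 on the right; circles are BL6J_7 and B6J_23_1, squares BL6J_8 and B6J_23_2, triangles BL6J_9 and B6J_23_3, and bars are the mean ± SD of 3. Rods, inner retinal neurons and endothelium were higher in BL6J, ocular surface, cell cycle, cholesterol synthesis and erythroid genes lower, and BL6J_7 (red circle) lay at the B6J_23 level for lens and striated muscle.

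At the deposited scaling, genes of the RPE itself were slightly lower in BL6J. Of 20 visual cycle genes, 10 were lower in BL6J without overlap and 1 was higher, with a median log2 fold change of -0.34; 0 passed limma over the 6 libraries, and without BL6J_7 the median was -0.39, with 3 genes higher and 8 lower past the threshold. The median was -0.065 under quantile normalization and -0.20 scaled by library total. Rgr, an opsin of the RPE that isomerizes retinal, was at 211001, 156699 and 186689 in BL6J libraries, against 224731, 290573 and 240280.4 in B6J_23 libraries. Rlbp1, which carries 11-cis retinal, was at 58989.7, 46455 and 55227 in BL6J libraries, against 63727, 85514 and 70979 in B6J_23 libraries. In both genes every BL6J library lay below every B6J_23 library, and both log2 fold changes were -0.45. Rpe65 differed by -0.43 (limma adjusted p = 0.124) and by -0.55 without BL6J_7 (limma adjusted p = 0.0275). Ttr, the carrier protein transthyretin, was at 213445, 151508 and 180818 in BL6J libraries, against 213822, 277479.9 and 229057 in B6J_23 libraries, with BL6J_7 just below the lowest B6J_23 library.

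A few visual cycle genes had values on the higher side. Rdh8, a retinol dehydrogenase of photoreceptor outer segments, was at 211, 662 and 543 in BL6J libraries, against 62.5, 188 and 161 in B6J_23 libraries. Rdh12, a second photoreceptor retinol dehydrogenase, was at 742, 2487 and 1972 in BL6J libraries, against 259, 831 and 624 in B6J_23 libraries. Every BL6J library exceeded every B6J_23 library for Rdh8, while for Rdh12 BL6J_7 lay below B6J_23_2. Without BL6J_7 both were called higher, with log2 fold changes of 2.27 and 2.11 (limma adjusted p = 0.0261 and 0.0317).

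Of the 38 genes of RPE identity and transport, 14 were lower in BL6J without overlap and 3 higher, with a median log2 fold change of -0.19 and of -0.26 without BL6J_7; under quantile normalization that median was 0.018, and scaled by library total -0.047. Slc16a8, the basolateral lactate transporter MCT3, was at 16357, 12667 and 15288 in BL6J libraries, against 20053, 27043 and 22665 in B6J_23 libraries. Its log2 fold change was -0.65 over the 6 libraries (limma adjusted p = 0.118) and -0.73 without BL6J_7 (limma adjusted p = 0.0192). Sox9, a transcription factor of the RPE, was at 3284, 2698 and 2948 in BL6J and 3749.8, 4090.2 and 4015 in B6J_23. Enpp2, the enzyme autotaxin, was at 101096, 88055 and 91403 in BL6J and 103589.7, 121105 and 88401 in B6J_23 and overlapped. Timp3, an inhibitor of matrix proteases made by the RPE, was at 66658, 61593 and 67369 in BL6J and 70420.4, 90919.7 and 78835 in B6J_23. The 3 genes higher without overlap were Crx at 2703, 7085 and 6003 in BL6J and 719, 2319 and 1935 in B6J_23, Cldn19 at 1441, 1504 and 1769 in BL6J and 1021, 709 and 1302 in B6J_23 and Frzb at 92.5, 124 and 83.2 in BL6J and 36.4, 77.4 and 45.7 in B6J_23. Crx is a transcription factor of photoreceptors, Cldn19 a tight junction protein and Frzb a secreted Wnt antagonist. Cdh1, E-cadherin, which other epithelia also make, had a log2 fold change of -1.50, the lowest of the 38, with 4268, 2276 and 1235 in BL6J and 8425, 6058 and 5317 in B6J_23.

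Pigment genes differed by small amounts in both directions. Of 21 melanin and melanosome genes, 3 were higher without overlap (Tyrp1, Pmel and Slc24a4) and 6 lower, and the median log2 fold change was -0.16, or -0.069 under quantile normalization and -0.013 scaled by library total. Tyr, which starts melanin synthesis, was at 12856, 11916 and 12411 in BL6J and 12222, 12728 and 12875 in B6J_23, and the sets overlapped. Pmel, the fibril protein of melanosomes, was at 29916, 34904 and 33622 in BL6J libraries, against 21686, 18383 and 29252 in B6J_23 libraries, higher in each BL6J library. Dct, a later melanin enzyme, was at 109058, 86932 and 103839 in BL6J and 90606, 78180.2 and 100391 in B6J_23.

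2 receptor kinases of outer segment uptake were lower in BL6J by a small amount at the deposited scaling. Mertk, a receptor kinase needed for uptake, was at 3169, 2638 and 2811 in BL6J libraries, against 3291, 3924 and 3381 in B6J_23 libraries. Tyro3, a kinase of the same family, was at 3202, 2765 and 3042 in BL6J libraries, against 3814, 4161 and 3404 in B6J_23 libraries. Neither pair of sets overlapped, with log2 fold changes of -0.30 and -0.33 and limma adjusted p of 0.125 and 0.118. Without BL6J_7 both were called lower, at -0.37 and -0.38 (limma adjusted p = 0.0325 and 0.0360). Over the 27 genes of outer segment phagocytosis, 6 were higher and 11 lower without overlap, and the median was -0.19, or -0.11 under quantile normalization and -0.046 scaled by library total. Itgav, the integrin alpha chain of that process, was at 14980.1, 13691 and 12766 in BL6J and 16164, 16390.1 and 15861 in B6J_23, and Anxa2, an annexin also made by many other epithelia, at 27057, 12619 and 9315 in BL6J and 41428, 26239 and 25836 in B6J_23.

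Genes of the neural retina were higher in BL6J. Of the 28 kept of 29 rod photoreceptor genes, 21 were higher in BL6J without overlap and 0 lower, with a median log2 fold change of 1.61, and without BL6J_7 22 were called higher and 0 lower, with a median of 2.03. Gnat1, the rod transducin alpha subunit, was at 29220.1, 69518 and 61214 in BL6J libraries, against 7449, 24979.6 and 22549 in B6J_23 libraries. Every BL6J library exceeded every B6J_23 library, with BL6J_7 nearest to B6J_23_2. The log2 fold change of Gnat1 was 1.63 ± 0.55 (SE) over the 6 libraries, a 3.09-fold difference (limma adjusted p = 0.124), and 2.02 without BL6J_7 (limma adjusted p = 0.0439). Sag, the arrestin of rods, was at 7650.1, 24199.7 and 19005 in BL6J libraries, against 1946, 6879 and 5339.6 in B6J_23 libraries. Nrl, the transcription factor that sets rod fate, was at 3569, 8385 and 7141 in BL6J libraries, against 950.3, 3361 and 2938 in B6J_23 libraries. Both repeated the order of Gnat1, with B6J_23_1 lowest and BL6J_8 highest.

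A few listed rod genes did not follow. Abca4, a retinoid transporter that the RPE also makes, was at 17555, 21659 and 20776 in BL6J and 16244, 18297 and 18063 in B6J_23, with a log2 fold change of 0.19. Slc24a1, a sodium, calcium and potassium exchanger, was at 23681, 24911 and 26148 in BL6J and 21251, 28193 and 23182 in B6J_23, with 0.050. The sets overlapped for both. The summed normalized count of the rod list was 238236 to 530727 in BL6J and 104846 to 229428 in B6J_23. In a bulk sample, fewer cells of a type and less RNA per cell cannot be told apart.

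Cones and inner retinal neurons leaned the same way as rods. Of 14 cone genes, 5 were higher without overlap and 0 lower, with a median log2 fold change of 1.38 (1.77 without BL6J_7). Arr3, cone arrestin, was at 389, 1135 and 1039 in BL6J libraries, against 118, 348 and 256 in B6J_23 libraries. Opn1sw, the short-wave cone pigment, was at 668, 4040.3 and 2436 in BL6J and 256, 1531 and 848 in B6J_23 and overlapped, since BL6J_7 lay below both B6J_23_2 and B6J_23_3. Thrb, a thyroid hormone receptor that directs cone pigment choice, was at 1569, 1882 and 1761 in BL6J and 1335, 1490.0 and 1561 in B6J_23.

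Of the 27 kept of 28 inner retinal genes, 19 were higher without overlap and 0 lower, with a median of 1.88 (2.27 without BL6J_7). Grm6, the glutamate receptor of ON bipolar cells, was at 340.4, 1126 and 777 in BL6J libraries, against 63.4, 334 and 209 in B6J_23 libraries. Gad1, which makes the transmitter GABA in amacrine cells, was at 619.8, 2010.3 and 1391 in BL6J libraries, against 111, 467 and 431 in B6J_23 libraries. Nefl, a neurofilament of ganglion cell axons, was at 755, 1892 and 1562 in BL6J libraries, against 139.9, 499 and 495 in B6J_23 libraries. In these 3 genes the sets did not overlap, and BL6J_7 was the lowest of its set. Trpm1, a channel of ON bipolar cells and of pigment cells, was at 28556, 26926 and 28434 in BL6J and 22809, 17489.7 and 28307 in B6J_23, and Slc6a9, a glycine transporter, at 4555, 4669 and 4815 in BL6J and 4787, 5529 and 4961 in B6J_23; both overlapped.

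Without B6J_23_1, the library with the lowest level of the rod list, the medians were 1.08 for rods, 0.85 for cones and 1.25 for inner retinal neurons. The mutant libraries of the same table spanned 11.41 to 12.83 in mean log2 level of the rod list, against 11.92, 13.17 and 12.93 in BL6J and 10.42, 11.79 and 11.61 in B6J_23. The BL6J libraries overlapped the range of the libraries with the mark 23.

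Müller glia, the radial glia of the retina, had 9 of 16 listed genes higher without overlap and 2 lower, with a median log2 fold change of 0.74. Slc1a3, the glutamate transporter GLAST, was at 1634, 2514 and 2378 in BL6J libraries, against 997, 1048 and 1122 in B6J_23 libraries. Kcnj10, the potassium channel Kir4.1, was at 265, 503 and 344 in BL6J libraries, against 54.1, 122 and 76.8 in B6J_23 libraries. Aqp4, the water channel of glial endfeet, was at 1308, 1900.2 and 1887 in BL6J libraries, against 971, 719 and 891 in B6J_23 libraries. All 3 were higher in every BL6J library, with log2 fold changes of 1.02, 2.15 and 0.97, and all 3 were called higher without BL6J_7 (limma adjusted p = 0.0102, 0.0128 and 0.0102). Clu, a secreted chaperone that the RPE makes as well, was at 101797, 83177 and 96719.5 in BL6J and 103712, 121825 and 106085 in B6J_23. Apoe, a lipid carrier of many cells, was at 92472, 75888 and 92687 in BL6J and 84404, 94702 and 94261 in B6J_23, with overlap. Gfap, an intermediate filament of reactive glia and astrocytes, was at 2424, 636 and 1540.0 in BL6J and 515, 1094 and 883 in B6J_23, highest in BL6J_7 and lowest in B6J_23_1.

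Vessel genes were also higher in BL6J. Of the 21 kept of 22 endothelial genes, 11 were higher without overlap and 0 lower, with a median of 0.70 (0.86 without BL6J_7). Kdr, the main receptor of the growth factor VEGF, was at 1039.7, 2223 and 1489.7 in BL6J libraries, against 505, 918 and 777 in B6J_23 libraries. Ptprb, a phosphatase of endothelial junctions, was at 1160.0, 1685 and 1424 in BL6J libraries, against 671, 773 and 713 in B6J_23 libraries. The sets did not overlap for these 2 genes. Vwf, the clotting factor stored in endothelium, was at 1491, 2109.9 and 1661 in BL6J and 910.2, 1537 and 1253 in B6J_23, and Ece1, an endothelin-converting enzyme found in many epithelia, at 3249, 2875 and 2317 in BL6J and 4257, 3629 and 3138 in B6J_23; both overlapped. The fibroblast and mural cell list had 6 of 22 higher and 2 lower, with a median of 0.22. Fbln1, a matrix glycoprotein, was at 11649.9, 12126 and 14192 in BL6J and 10412, 6452 and 10664 in B6J_23. The sclera and cartilage list had 7 of 15 higher and 2 lower, with a median of 0.64; Col9a1, a collagen chain, was at 7156, 6786 and 11230.3 in BL6J and 6643, 3601 and 5196 in B6J_23.

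**Figure D2:**
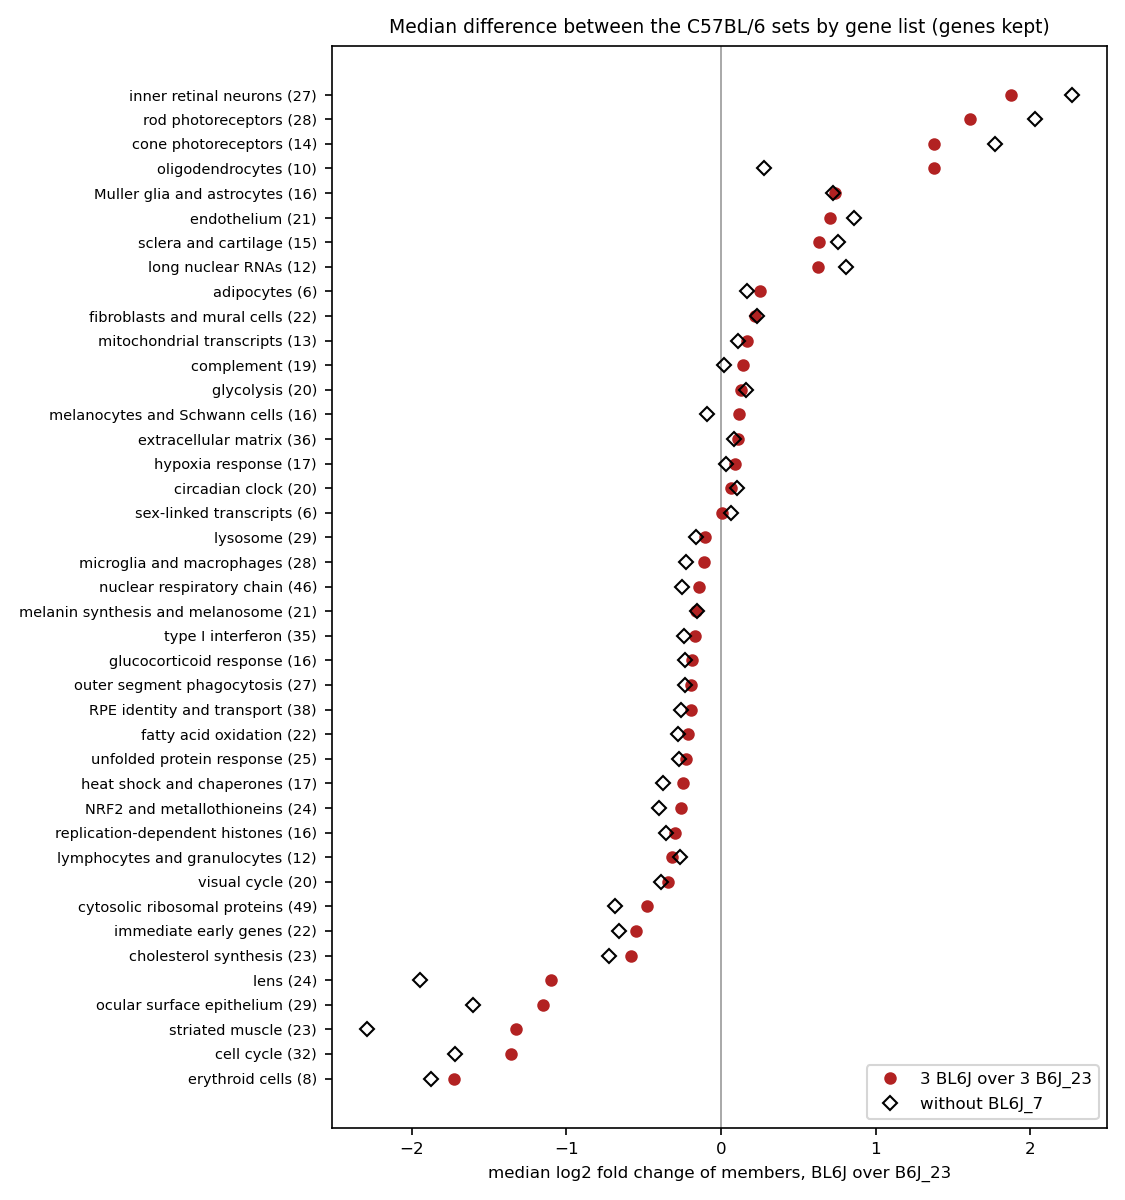
Median log2 fold change of list members, BL6J over B6J_23, for the 41 lists with at least 6 genes kept (number in brackets), over all 6 libraries (red) and without BL6J_7 (open diamonds). Inner retinal neurons were highest at 1.88 and erythroid cells lowest at -1.73; without BL6J_7 the lens median was -1.94, striated muscle -2.29 and oligodendrocytes 0.28.

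Many genes of the ocular surface list were lower in BL6J. Of the 29 kept of 30 genes of ocular surface epithelium, 15 were lower in BL6J without overlap and 0 higher, with a median log2 fold change of -1.15, and without BL6J_7 19 were called lower and 0 higher, with a median of -1.60. Krt15, a keratin of basal conjunctival and limbal cells, was at 84432, 38810.4 and 26426 in BL6J libraries, against 146734, 96203 and 89229 in B6J_23 libraries. Krt5, a keratin of basal cells of stratified epithelia, was at 50499.7, 35592 and 20018 in BL6J libraries, against 88643, 64244 and 68667 in B6J_23 libraries. Krt14, its keratin partner, was at 7774, 2939 and 2064 in BL6J libraries, against 18012, 14554 and 13369 in B6J_23 libraries. No BL6J library reached the lowest B6J_23 library in these 3 genes, and BL6J_7 was the highest of its set. The log2 fold change of Krt14 was -2.07 over the 6 libraries (limma adjusted p = 0.118) and -2.62 without BL6J_7 (limma adjusted p = 0.0102).

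The sets overlapped for 2 genes of the cornea on this list. Krt12, the keratin of differentiated corneal epithelium, was at 1893, 6773 and 2518 in BL6J libraries, against 528, 379 and 6147 in B6J_23 libraries. Aldh3a1, a crystallin-like enzyme of the cornea, was at 30467, 25535 and 11113 in BL6J libraries, against 33916, 16331 and 28293 in B6J_23 libraries. BL6J_8 and B6J_23_3 were the 2 highest libraries for Krt12. Sprr1b of this list was at 0 in all 6 libraries. The summed level of the list was 147336 to 392766 in BL6J and 421177 to 660459 in B6J_23, without overlap, and in the 6 mutant libraries its mean log2 level spanned 10.06 to 12.32 against 11.92, 11.28 and 10.42 in BL6J and 12.43, 11.93 and 11.92 in B6J_23.

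Lens and striated muscle genes differed as much between libraries of a set as between the sets. Cryaa, the lens chaperone alpha-A crystallin, was at 39281, 4376 and 10756 in BL6J libraries, against 34993, 34277 and 12452 in B6J_23 libraries. BL6J_7 had the highest value of the 6 and BL6J_8 the lowest, and the sets overlapped for all 24 lens genes. The lens median was -1.10 over the 6 libraries, -1.94 without BL6J_7 and -0.35 without BL6J_8, and 7 of 24 genes were called lower without BL6J_7. Myh4, a fast skeletal myosin, was at 3572, 139 and 249.6 in BL6J libraries, against 3757, 3641 and 1639.6 in B6J_23 libraries. Acta1, skeletal muscle actin, was at 4749, 461 and 473 in BL6J libraries, against 4808, 5030.4 and 2329 in B6J_23 libraries. All 23 kept muscle genes overlapped between the sets, with a median of -1.33; without BL6J_7 17 were called lower, with a median of -2.29. The muscle median was -0.88 without BL6J_9. Tnnc2 of this list was at 0 throughout.

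Oligodendrocyte genes, which mark the sheathed part of the optic nerve, were on average highest in BL6J_7, then in BL6J_9, and lowest in BL6J_8. The mean log2 level of the list was 9.09, 5.76 and 7.44 in BL6J and 6.24, 6.36 and 6.21 in B6J_23. Mobp, a myelin protein, was at 6203, 43.2 and 769 in BL6J libraries, against 307, 121 and 122 in B6J_23 libraries. Mbp, myelin basic protein, was at 21997, 2145 and 4069 in BL6J libraries, against 5441, 3833 and 3562 in B6J_23 libraries. Mog, a surface protein of myelin, was at 249.8, 14.4 and 58.1 in BL6J libraries, against 10.3, 24.6 and 15.6 in B6J_23 libraries. The median of the 10 genes kept was 1.38 over the 6 libraries, 0.28 without BL6J_7 and 2.55 without BL6J_8. Ermn, a listed gene that did not share this pattern, was at 10806, 7396 and 8838 in BL6J and 10309, 12731 and 10709 in B6J_23.

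Red cell genes were lower in all 8 kept members of the erythroid list, without overlap. Hba-a1, an alpha globin, was at 2128, 1802 and 2226 in BL6J libraries, against 4591, 8098 and 13146 in B6J_23 libraries. Hbb-bs, a beta globin, was at 6290.3, 4448 and 5403 in BL6J libraries, against 9915, 18277 and 31608 in B6J_23 libraries. Alas2, the first enzyme of heme synthesis in red cells, was at 492, 404 and 504 in BL6J libraries, against 842, 1182 and 2286 in B6J_23 libraries. The BL6J libraries were close to each other, whereas the B6J_23 libraries spread over a wide range with B6J_23_3 highest. The median log2 fold change was -1.73, and without BL6J_7 7 of 8 were called lower, with a median of -1.88. Globin genes are near-identical copies of each other, so reads may be split among them. Red cell genes were thus lower in BL6J while endothelial genes were higher.

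Immune cell lists had few genes without overlap. The microglia and macrophage list had 1 of 28 genes higher and 3 lower without overlap, with a median of -0.11, which was 0.032 when scaled by library total. Csf1r, the receptor for macrophage growth factor, was at 6988, 6146 and 7370.2 in BL6J and 7682, 10101 and 8316 in B6J_23. The lymphocyte and granulocyte list had 0 of 12 higher and 1 lower, and Ighm, an antibody heavy chain, was at 88.8, 111 and 105 in BL6J and 97.9, 177 and 128 in B6J_23. Adipocyte genes had 1 of 6 higher and 0 lower, with Lpl, lipoprotein lipase, at 2116, 1784 and 1914 in BL6J and 1499.6, 1121 and 1994 in B6J_23.

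Cell cycle genes were lower in BL6J. Of 32 listed genes, 22 were lower without overlap and 0 higher, with a median of -1.36, and without BL6J_7 30 were called lower and 0 higher, with a median of -1.72. Mki67, a nuclear protein of dividing cells, was at 1345, 678 and 383 in BL6J libraries, against 3373, 2145 and 1820.4 in B6J_23 libraries. Mcm3, a subunit of the replicative helicase, was at 249.8, 202 and 166 in BL6J libraries, against 541, 562 and 477 in B6J_23 libraries. Ccnb1, a cyclin of mitosis, was at 276, 147 and 59.7 in BL6J libraries, against 659, 406 and 354 in B6J_23 libraries. BL6J_7 was the highest and BL6J_9 the lowest of its set in all 3. Mcm3 differed by -1.37 ± 0.17 (SE) on the log2 scale over 6 libraries (limma adjusted p = 0.118, DESeq2 adjusted p = 8.94e-09) and by -1.51 without BL6J_7 (limma adjusted p = 0.0102). Ccnd1, a cyclin of early cycle that non-dividing cells also make, was at 3593, 2878 and 3146 in BL6J and 4231, 4953 and 4139 in B6J_23. Among the 6 libraries the cell cycle list followed the order of the ocular surface list in BL6J, with mean log2 levels of 8.46, 7.53 and 6.99 in BL6J and 9.22, 8.91 and 8.62 in B6J_23 for the cell cycle and 11.92, 11.28 and 10.42 in BL6J and 12.43, 11.93 and 11.92 in B6J_23 for the ocular surface. The part of surface epithelium in the cell cycle values was not tested.

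Cholesterol synthesis genes were lower in BL6J. Of 23 genes, 21 were lower without overlap and 0 higher, with a median log2 fold change of -0.58; without BL6J_7 20 were called lower and 0 higher, with a median of -0.72. Cyp51, a demethylase of the sterol pathway, was at 2918, 1989 and 1896 in BL6J libraries, against 3751, 3475 and 3779 in B6J_23 libraries. Mvd, a decarboxylase early in the pathway, was at 699, 451 and 543 in BL6J libraries, against 907, 1005 and 1076 in B6J_23 libraries. Srebf2, the transcription factor of the pathway, was at 5955, 5224 and 4976 in BL6J libraries, against 7302, 6758 and 6752 in B6J_23 libraries. In these 3 genes no BL6J library reached the lowest B6J_23 library. Fdps, which makes farnesyl diphosphate, was at 178, 138 and 100.5 in BL6J and 179, 132 and 193 in B6J_23 and overlapped.

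Ribosomal protein genes were lower in 2 of the 3 BL6J libraries: their mean log2 level was 12.23, 11.58 and 11.60 in BL6J and 12.40, 12.26 and 12.19 in B6J_23. Of 49 genes, 24 were lower without overlap and 0 higher, with a median of -0.48; without BL6J_7 47 were called lower and the median was -0.69. Rplp0, a protein of the ribosomal stalk, was at 15139, 9023 and 8551 in BL6J libraries, against 23603, 18651 and 18265 in B6J_23 libraries. Rpl4, a protein of the large subunit, was at 13548, 10038 and 9331 in BL6J libraries, against 15869, 13888 and 13308 in B6J_23 libraries, with BL6J_7 above B6J_23_3. Ribosomal protein genes have many near-identical pseudogenes, so reads may be split between a gene and its copies.

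Immediate early genes were lower in BL6J by smaller amounts. Of 22 immediate early genes, 7 were lower without overlap and 0 higher, with a median of -0.55 (-0.33 without BL6J_9). Junb, a transcription factor of the AP-1 family, was at 1045, 583 and 438 in BL6J libraries, against 1619, 1592 and 1054 in B6J_23 libraries. Fosl2, of the same family, was at 2451, 1878 and 1188 in BL6J libraries, against 4031, 2713 and 2663 in B6J_23 libraries. Klf4, a factor of epithelial cells, was at 2503, 2209.5 and 1182 in BL6J and 3342, 2342 and 2818 in B6J_23, with overlap. Fos itself was at 159, 221 and 144 in BL6J and 212, 441 and 262 in B6J_23, and Egr1 at 442, 488 and 491 in BL6J and 384, 1664 and 576 in B6J_23; both overlapped and were highest in B6J_23_2.

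Of the lists of cell stress, heat shock and NRF2 genes were lower without overlap about as often as all genes (18.6%). The heat shock list had 3 of 17 lower and 1 higher, with Hspa8, a constitutive chaperone, at 28271, 25456 and 25347 in BL6J and 32462, 34609 and 33025 in B6J_23 and Hsp90aa1, an inducible one, at 35323, 34529 and 36171 in BL6J and 34347, 40363 and 36591 in B6J_23. Hspa8 did not overlap between the sets and Hsp90aa1 did. Of 16 glucocorticoid response genes, 6 were lower and 3 higher; Sgk1, a kinase, was at 18386, 16588 and 17811 in BL6J and 19817, 21922 and 20755 in B6J_23 and Mt1, a metallothionein, at 7554, 4575 and 5428 in BL6J and 8278, 9376 and 9104 in B6J_23. Both were lower in each BL6J library. The 24 genes of the NRF2 and metallothionein list had 5 lower and 2 higher, with Fth1, a ferritin chain, at 26480.1, 17069 and 18949 in BL6J and 26612, 24123 and 25894 in B6J_23 and Gsta4, a glutathione transferase, at 21305, 11775 and 9124 in BL6J and 28285, 19365 and 20893 in B6J_23. Of 25 unfolded protein response genes, 12 were lower and 2 higher, and Hspa5, the chaperone BiP, was at 18331, 15442 and 15499 in BL6J and 20144, 19535 and 19371 in B6J_23.

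Clock and energy genes differed by small amounts. The circadian list had 4 of 20 higher and 1 lower without overlap, with a median of 0.065; Tef, a clock output factor, was at 6113, 6560.4 and 6592 in BL6J and 6269, 7336 and 6715 in B6J_23, and Hlf, of the same family, at 5450.3, 5836 and 5053 in BL6J and 5216, 5155 and 5154 in B6J_23. Both overlapped. The glycolysis list had 5 of 20 higher and 1 lower, with Gapdh at 29646, 30993 and 31460.2 in BL6J and 29353, 30105 and 29207 in B6J_23. Of 46 nuclear genes of the respiratory chain, 13 were lower and 3 higher, with a median of -0.14 that was 0.0020 when scaled by library total; Atp5b, of the ATP synthase, was at 28243, 24750.1 and 25767 in BL6J and 29766, 29393 and 29547 in B6J_23. The lysosome list had 11 of 29 lower and 1 higher, with a median of -0.11 that was 0.041 when scaled by library total. Psap, the precursor of the saposins, was at 89925, 77820.0 and 85163 in BL6J and 96031, 109692 and 95896 in B6J_23, and Gpnmb, a glycoprotein of lysosomes and melanosomes, at 34078, 34344 and 35388 in BL6J and 26801, 21880.0 and 32228 in B6J_23. Fatty acid oxidation had 8 of 22 lower and 1 higher. The extracellular matrix list had 7 of 36 lower and 6 higher, and Col8a2, a collagen of basement membranes, was at 40926, 30845 and 35135 in BL6J and 49022, 67342 and 57306 in B6J_23, lower in each BL6J library. Of the remaining lists, histone genes had 7 of 16 lower and 0 higher, interferon genes 3 of 35 lower and 0 higher, complement genes 1 of 19 lower and 3 higher, hypoxia genes 2 of 17 each way, and melanocyte and Schwann cell genes 3 of 16 each way.

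Of the annotated gene classes, processed pseudogenes were most often higher in BL6J. These are intronless copies of mRNAs inserted elsewhere in the genome, and their reads can be hard to tell from those of the gene they copy. Of 1102 processed pseudogenes kept, 566 (51.4%) were higher in BL6J without overlap and 12 (1.09%) lower, against 15.8% and 21.6% of 15011 protein-coding genes. A gene near the filter can be kept through the 3 libraries of the set where it is higher. The part of this in the pseudogene shares, here and by identity below, was not tested. The median log2 fold change was 0.77 for processed pseudogenes, 0.53 without BL6J_7, and -0.049 for protein-coding genes. Their share of the library was 0.388, 0.283 and 0.266% in BL6J and 0.165, 0.177 and 0.177% in B6J_23, so the lowest BL6J library exceeded the highest B6J_23 library (exact permutation p = 0.1, the smallest that 3 against 3 allow). This measure was not planned. At equal depth, the number of processed pseudogenes detected was 2869, 2948 and 2916 in BL6J and 2491, 2508 and 2548 in B6J_23.

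The 551 protein-coding genes most like these pseudogenes had a median log2 fold change of -0.21, with 5.63% higher and 37.9% lower without overlap, so the median had the opposite sign from that of the copies. The difference was present at each level of the coding gene: the median was 0.60 for the 266 pseudogenes with the weakest coding genes and 0.83 for the 265 with the strongest. It varied with identity. Among pseudogenes 98 to 100% identical to a coding transcript the median was 0.77 (0.50 without BL6J_7; n = 491, 53.8% higher without overlap), and at 95 to 98% it was 0.90 (n = 348, 59.8%). At 90 to 95% it was 0.79 (n = 148, 45.9%), at 70 to 90% it was 0.17 (n = 69, 23.2%), and where no match covered 50% of the length it was 0.23 (n = 41, 24.4%); a further 5 matched at under 70%. The last 2 shares lay nearer to the 17.6% over all genes.

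**Figure D3:**
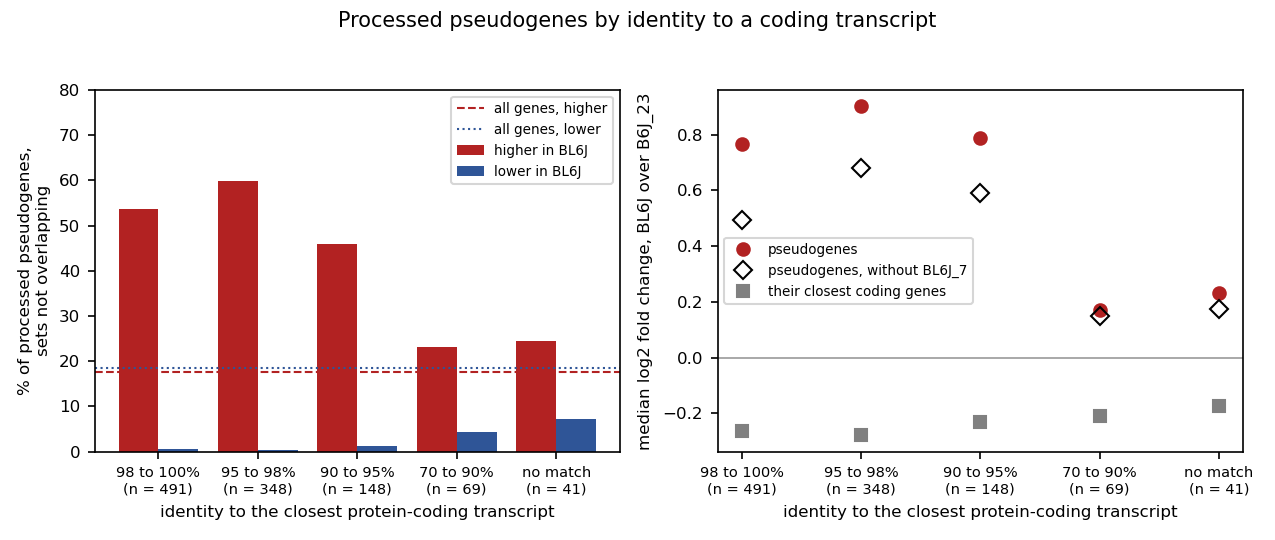
Left, percent of processed pseudogenes whose values did not overlap between the sets, higher (red) or lower (blue) in BL6J, by identity to the closest protein-coding transcript, with lines at the 17.6% and 18.6% over all genes. Right, median log2 fold change of the pseudogenes over all 6 libraries (red) and without BL6J_7 (open), and of the closest coding genes (grey); copies over 90% identical had medians of 0.77 to 0.90 and their coding genes medians of -0.28 to -0.23.

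The processed pseudogenes of highest normalized count, a choice made after values were seen, show the range. Gm12346, 99.5% identical to the Hsp90aa1 transcript, was at 1027, 811 and 746 in BL6J libraries, against 318, 409 and 417 in B6J_23 libraries. Gm6560, 98.4% identical to that of Pkm, a glycolytic kinase, was at 857, 763 and 697 in BL6J libraries, against 191, 311 and 291 in B6J_23 libraries. Gm13456, 96.8% identical to that of Eef1a1, a translation elongation factor, was at 1656, 949 and 949.7 in BL6J libraries, against 636, 629.5 and 612 in B6J_23 libraries. Each BL6J library was higher than each B6J_23 library in these 3, with log2 fold changes of 1.17, 1.57 and 0.87. Their coding genes Hsp90aa1, Pkm and Eef1a1 had log2 fold changes of -0.067, 0.23 and -0.42. Gm10736, identical to Rpl41 over the bases aligned, ran the other way, at 673, 363 and 433 in BL6J libraries, against 839, 875 and 875 in B6J_23 libraries. Gm1821, 98.5% identical to Ubb, was at 363, 934 and 394 in BL6J and 792, 416 and 352 in B6J_23 and overlapped.

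A second set of copies lies in the nucleus and derives from mitochondrial DNA. On GRCm38 chromosome 1, between 24611535 and 24616197 on the minus strand, 6 annotated unprocessed pseudogenes follow each other that are 99.8 to 100% identical to mitochondrial genes over the aligned length. Gm10925 (chr1:24613974-24614651) copies mt-Atp6, a subunit of the mitochondrial ATP synthase. The first 120 bases of both are shown because no base in them tells the copy from the gene; capitals would mark mismatches, of which there are 0.
Gm10925: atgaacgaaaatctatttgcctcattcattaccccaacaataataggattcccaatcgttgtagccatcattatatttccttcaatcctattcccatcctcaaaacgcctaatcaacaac
mt-Atp6: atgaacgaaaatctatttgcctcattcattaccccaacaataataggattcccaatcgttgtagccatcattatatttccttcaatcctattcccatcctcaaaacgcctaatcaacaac

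Gm10925 was at 6307, 3432 and 4064 in BL6J libraries, against 1238, 1389 and 1493 in B6J_23 libraries. mt-Atp6 itself was at 5911, 3169 and 4189.8 in BL6J libraries, against 1186, 1435 and 1629.9 in B6J_23 libraries, nearly the same numbers, and the ratio of copy to gene was 1.07, 1.08 and 0.970 in BL6J and 1.04, 0.968 and 0.916 in B6J_23. Both were higher in every BL6J library, with log2 fold changes of 1.70 and 1.61. Gm10222, which copies mt-Nd4l, was at 516, 410.2 and 429 in BL6J libraries, against 129, 123 and 128 in B6J_23 libraries and had the smallest limma adjusted p of all 18644 genes, 0.0655. With the spread from all 12 libraries its limma adjusted p was 0.00125. A ratio of copy to gene near 1 was not seen in the other pairs compared. It was 0.444 to 0.673 for Gm10222 over mt-Nd4l and 0.553 to 0.732 for Gm28437 over mt-Co3. For Gm28661 over mt-Co2 it was 0.626 to 0.783.

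The mitochondrial genes split by position. The stretch on chromosome 1 matches the mitochondrial map from a part of mt-Co1 to a part of mt-Nd4. The 6 protein-coding genes between these, which are mt-Co2, mt-Atp8, mt-Atp6, mt-Co3, mt-Nd3 and mt-Nd4l, had log2 fold changes of 1.20 to 2.33. mt-Atp8, a small subunit of the ATP synthase, was at 1286, 797 and 992 in BL6J libraries, against 198, 159 and 252 in B6J_23 libraries. mt-Co2, a subunit of cytochrome oxidase, was at 9456, 4651 and 6307 in BL6J libraries, against 1837, 1855 and 2277 in B6J_23 libraries. mt-Nd4l, a subunit of complex I, was at 1162, 619 and 735 in BL6J libraries, against 191, 195 and 194 in B6J_23 libraries. The sets did not overlap for any of the 6, and all 6 were called higher without BL6J_7 (limma adjusted p = 0.0102 to 0.0128). The other 7 protein-coding mitochondrial genes had log2 fold changes of 0.024 to 0.17 and all overlapped. Among them mt-Co1, mt-Nd4 and mt-Nd5 were at 0.024, 0.14 and 0.17. The copies Gm29216 and Gm28439, which match mt-Co1 and mt-Nd4, were at 1.35 and 1.79. Gm4076 on chromosome 13, 95.2% identical to mt-Nd5, was at 1.20. mt-Co1, the largest cytochrome oxidase subunit, was at 427597, 307917 and 374109 in BL6J libraries, against 356848, 355246 and 369459 in B6J_23 libraries. mt-Cytb, cytochrome b, was at 263985, 190303 and 235076 in BL6J libraries, against 204524, 206561 and 223233 in B6J_23 libraries. mt-Rnr1, the small ribosomal RNA, was at 17609, 10261 and 19259.8 in BL6J and 23339, 19491 and 20603 in B6J_23, lower in each BL6J library. mt-Atp8 and mt-Atp6 share bases, so their counts are not separate. Per kilobase of transcript, mt-Atp8 averaged 5024 normalized counts in BL6J and 995 in B6J_23, while mt-Co1 averaged 239401 in BL6J and 233345 in B6J_23.

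**Figure D4:**
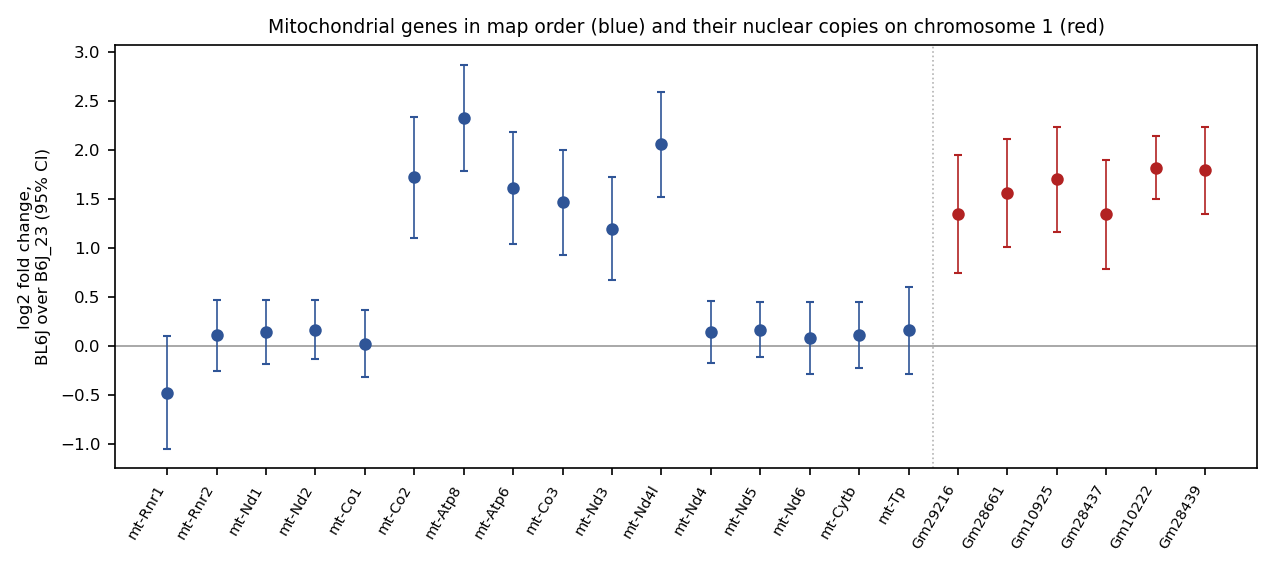
Log2 fold change, BL6J over B6J_23, with its 95% confidence interval from limma, for mitochondrial genes in map order (blue) and for their nuclear copies on chromosome 1 (red). The 6 genes from mt-Co2 to mt-Nd4l had log2 fold changes of 1.20 to 2.33 and the 6 copies 1.34 to 1.82, while the other protein-coding mitochondrial genes lay between 0.024 and 0.17.

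Together the 6 mitochondrial genes made up 0.09999, 0.0568 and 0.0741% in BL6J and 0.0197, 0.0212 and 0.0248% in B6J_23. The 6 nuclear copies on chromosome 1 match mt-Co1, mt-Co2, mt-Atp6, mt-Co3, mt-Nd4l and mt-Nd4. They made up 0.0969, 0.0587 and 0.0677% in BL6J and 0.0195, 0.0231 and 0.0252% in B6J_23. All mitochondrial genes together took 5.30, 4.22 and 5.14% in BL6J and 3.93, 3.97 and 4.37% in B6J_23, with overlap. The 6 mutant libraries, which carry the mark 23, had 0.0320, 0.0295 and 0.0350% (Tyro3-/-V1) and 0.0225, 0.0209 and 0.0199% (Mertk-/-V2Tyro3-/-V2) for the 6 mitochondrial genes. Their processed pseudogene shares were 0.243, 0.205 and 0.195% (Tyro3-/-V1) and 0.191, 0.165 and 0.171% (Mertk-/-V2Tyro3-/-V2). For both measures the lowest BL6J library thus lay above all 9 libraries with the mark 23. For rods, ocular surface, lens and muscle the BL6J libraries overlapped the range of those 9. The erythroid list did not overlap either, with mean log2 levels of 8.18, 7.70 and 7.94 in BL6J and 8.42 to 10.39 in those 9.

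**Figure D5:**
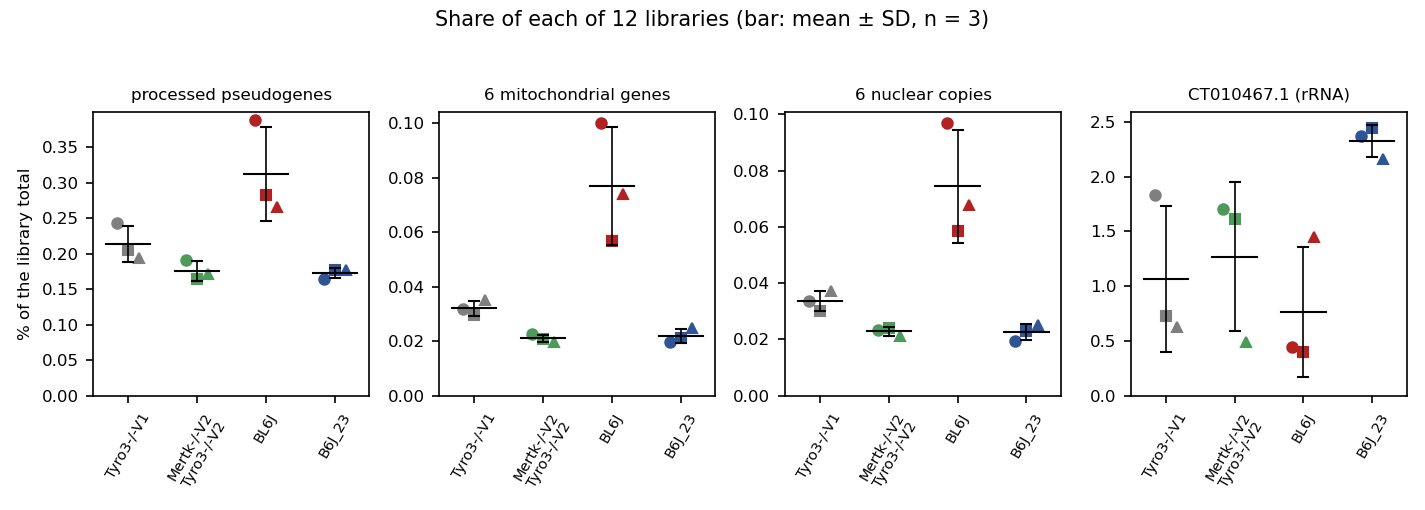
Percent of the library total in processed pseudogenes, in 6 mitochondrial genes (mt-Co2, mt-Atp8, mt-Atp6, mt-Co3, mt-Nd3, mt-Nd4l), in 6 nuclear copies on chromosome 1 and in the ribosomal RNA gene CT010467.1, in each of 12 libraries. The copies match mt-Co1, mt-Co2, mt-Atp6, mt-Co3, mt-Nd4l and mt-Nd4. Circles, squares and triangles tell the libraries of a group apart, in the order of their numbers, and bars are the mean ± SD of 3. BL6J libraries held 0.266 to 0.388% in processed pseudogenes, against 0.165 to 0.243% in the 9 libraries with the mark 23.

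Aldoart1, an expressed retrogene, was also higher in BL6J while the gene it copies differed little. It is a protein-coding, testis-expressed copy of Aldoa, the glycolytic aldolase, at chr4:72850583-72852634 on the minus strand (GRCm38), and its transcript is 92.6% identical to that of Aldoa (chr7:126795234-126800751, minus strand) over 1510 aligned bases. An aligned stretch of 120 bases (transcript positions 206 to 325 in Aldoart1 and 209 to 328 in Aldoa) is shown because, unlike the mitochondrial copy, it holds bases that separate copy from gene; capitals mark the 12 mismatches.
Aldoart1: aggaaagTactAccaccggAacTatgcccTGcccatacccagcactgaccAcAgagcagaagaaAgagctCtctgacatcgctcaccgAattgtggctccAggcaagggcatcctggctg
Aldoa: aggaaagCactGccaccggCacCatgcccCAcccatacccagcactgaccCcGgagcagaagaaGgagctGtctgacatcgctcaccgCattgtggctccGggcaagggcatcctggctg

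Aldoart1 was at 241, 208 and 176 in BL6J libraries, against 30.8, 37.5 and 47.6 in B6J_23 libraries. Each BL6J library was several times above each B6J_23 library, with a log2 fold change of 2.41 ± 0.23 (SE), a 5.32-fold difference (limma adjusted p = 0.118, DESeq2 adjusted p = 2.34e-15, and 0.0253 by limma with the spread from 12 libraries). Aldoa was at 33248, 30779.7 and 32848 in BL6J libraries, against 26663, 29869 and 27919.7 in B6J_23 libraries, a log2 fold change of 0.20. In the mutant libraries Aldoart1 was at 59.6, 33.2 and 93.8 in Tyro3-/-V1 and 34.1, 35.1 and 36.6 in Mertk-/-V2Tyro3-/-V2. Read length and alignment settings are not given in the sources used here, and their part in the values of copies was not tested.

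RNAs that carry no poly(A) tail also differed between the sets. CT010467.1, annotated as ribosomal RNA at chr17:39846353-39848827 on the minus strand, was at 116836, 94969 and 354184 in BL6J libraries, against 668565, 671411 and 579954 in B6J_23 libraries. It was lower in every BL6J library, with BL6J_9 nearest to B6J_23, and it made up 0.447, 0.397 and 1.45% in BL6J and 2.37, 2.45 and 2.17% in B6J_23. The mutant libraries held 1.83, 0.732 and 0.629% in Tyro3-/-V1 and 1.71, 1.61 and 0.487% in Mertk-/-V2Tyro3-/-V2, a range that overlapped BL6J. Rn7sk, a small nuclear RNA that restrains transcription elongation, was at 249.8, 279 and 582 in BL6J libraries, against 1245, 913 and 908 in B6J_23 libraries. Scarna17, a small guide RNA of Cajal bodies, was at 72.2, 76.0 and 75.3 in BL6J libraries, against 9.33, 15.2 and 10.7 in B6J_23 libraries. Rn7sk was lower and Scarna17 higher in each BL6J library, with log2 fold changes of -1.55 and 2.59. Of the 20 RNAs on this list, 9 were at 0 in all 6 libraries and 3 were kept. Long nuclear RNAs, which do carry a tail in most cases, had 6 of 12 higher and 1 lower without overlap, among them Meg3, an imprinted RNA abundant in neurons, at 3639, 8290.2 and 7075 in BL6J libraries, against 1217, 2369 and 2438 in B6J_23 libraries. Malat1, which stays in the nucleus of most cells, was at 62364, 68337 and 97052 in BL6J and 82975, 72886 and 80910.5 in B6J_23. Neat1, the RNA of paraspeckles, was at 16288, 11411 and 11821 in BL6J and 22916, 15901 and 15012 in B6J_23. Both overlapped.

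Short transcripts were more often lower in BL6J and long ones more often higher. With protein-coding genes in 5 groups of equal size by transcript length, the median log2 fold change was -0.17 in the shortest group (up to 2003 bases) and 0.057 in the longest (from 5310 bases). Without overlap, 9.30% of the shortest were higher and 26.4% lower, and 22.8% of the longest were higher and 15.1% lower, against 15.8% and 21.6% of all protein-coding genes. By GC content the medians were 0.025 in the group with the lowest content and -0.079 in the group with the highest.

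The largest differences by size were chosen after values were seen, as the 12 largest on each side among genes called without BL6J_7, with a mean of at least 50 in either set and no overlap, with mitochondrial genes, pseudogenes and gene models left out. On the higher side, Vgf, a secreted neuropeptide precursor, was at 51.8, 201 and 141 in BL6J libraries, against 8.39, 32.8 and 17.5 in B6J_23 libraries. Neurod2, a transcription factor of neurons, was at 72.2, 101 and 78.5 in BL6J libraries, against 9.33, 12.9 and 15.6 in B6J_23 libraries. Ina, a neurofilament protein, was at 346, 847 and 608 in BL6J libraries, against 42.0, 189.9 and 206 in B6J_23 libraries. Cacna1b, a presynaptic calcium channel, was at 74.0, 218 and 198 in BL6J libraries, against 10.3, 51.6 and 47.6 in B6J_23 libraries. Their log2 fold changes over the 6 libraries were 2.67, 2.65, 2.24 and 2.27. Others were Rgs7, Slc5a7, Zfp804b, Cntn2 and Kcnj5, at 2.27 to 2.36 on the log2 scale, beside Scarna17 and Aldoart1 given above.

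On the lower side, Krt17, a keratin of basal and stressed epithelium, was at 1447, 464 and 232 in BL6J libraries, against 3063, 3206 and 3157 in B6J_23 libraries. Krt16, a related keratin, was at 155, 101 and 84.8 in BL6J libraries, against 371, 664 and 1177 in B6J_23 libraries. Foxa1, a transcription factor of glandular epithelia, was at 128, 19.7 and 12.6 in BL6J libraries, against 293, 209 and 137 in B6J_23 libraries. Serpinb2, a protease inhibitor, was at 102, 17.0 and 10.99 in BL6J libraries, against 249, 281 and 314 in B6J_23 libraries. Sftpd, a surfactant protein of airways and other mucosal surfaces, was at 40.7, 0 and 1.57 in BL6J libraries, against 69.0, 42.2 and 60.3 in B6J_23 libraries. In each of these 5, BL6J_7 was the highest of its set. Sprr1a, Wfdc18, Fam83e, Aadac, Pitx1, Lgals7 and Mab21l3 completed the 12, with log2 fold changes of -3.34 to -2.18 over the 6 libraries.

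The mutant groups were then set against each control set. In 1 limma model with 4 groups, Tyro3-/-V1 over BL6J called 7 genes higher (0.0375%) and 10 lower (0.0536%), and over B6J_23 4 higher (0.0215%) and 3 lower (0.0161%). Mertk-/-V2Tyro3-/-V2 over BL6J called 44 higher (0.236%) and 111 lower (0.595%), and over B6J_23 65 higher (0.349%) and 67 lower (0.359%). These pairs of contrasts share their mutant libraries. The counts moved with single libraries. The 17 calls of Tyro3-/-V1 over BL6J were 1 without BL6J_7, 7 without BL6J_8, 0 without BL6J_9, 0 without Tyro3-/-V1 replicate 1 or 2, 3 without replicate 3, 6 and 4 without B6J_23_1 or B6J_23_3, with Mertk-/-V2Tyro3-/-V2 replicate 1 left out 10, and with replicate 2 left out 6. The 7 calls over B6J_23 were 3 without B6J_23_1, B6J_23_3 or Tyro3-/-V1 replicate 2, and 4 without replicate 3. The 155 calls of Mertk-/-V2Tyro3-/-V2 over BL6J were 71, 44 and 55 without BL6J_7, BL6J_8 or BL6J_9, 61 with Mertk-/-V2Tyro3-/-V2 replicate 1 left out and 59 with replicate 2 left out, 93 without Tyro3-/-V1 replicate 2, and 89, 92 and 95 without B6J_23_1, B6J_23_2 or B6J_23_3. The 132 calls over B6J_23 were 0, 0 and 6 without B6J_23_1, B6J_23_2 or B6J_23_3, 10 with Mertk-/-V2Tyro3-/-V2 replicate 1 left out and 39 with replicate 3 left out, 14 without Tyro3-/-V1 replicate 2, and 55 and 19 without BL6J_8 or BL6J_9.

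Pseudogenes, which were 6.20% of the genes tested, were 4 of the 10 genes called lower in Tyro3-/-V1 than in BL6J and 0 of the 3 called lower than in B6J_23. Of the 111 genes lower in Mertk-/-V2Tyro3-/-V2 libraries than in BL6J, 73 were pseudogenes, against 1 of the 67 lower than in B6J_23. Over all processed pseudogenes the median log2 fold change was -0.52 for Tyro3-/-V1 over BL6J, 0.23 over B6J_23, -0.96 for Mertk-/-V2Tyro3-/-V2 over BL6J and -0.16 over B6J_23. mt-Nd4l differed by -2.21 in Mertk-/-V2Tyro3-/-V2 over BL6J (limma adjusted p = 0.00498) and by -0.15 over B6J_23 (limma adjusted p = 0.673). Fitted on the 2 groups alone, its limma adjusted p over BL6J was 0.124.

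The targeted gene Tyro3 passed the test against either set in the model with 4 groups, though most of these calls ended under other settings. Tyro3 was at 1269.5, 1183 and 1423 in Tyro3-/-V1 and 1777, 1904 and 1433 in Mertk-/-V2Tyro3-/-V2 libraries. Its log2 fold change was -1.22 in Tyro3-/-V1 over BL6J and -1.55 over B6J_23, and -0.82 over BL6J and -1.16 over B6J_23 in Mertk-/-V2Tyro3-/-V2 (limma adjusted p = 0.0103, 0.00156, 0.0150 and 0.0101). Fitted on the 2 groups alone, its limma adjusted p was 0.0645 in Tyro3-/-V1 over BL6J and 0.0392 over B6J_23, and 0.197 in Mertk-/-V2Tyro3-/-V2 over BL6J and 0.142 over B6J_23. With single libraries left out, the call of Tyro3-/-V1 over BL6J ended without BL6J_7, BL6J_9 or Tyro3-/-V1 replicate 1 or 2 (limma adjusted p = 0.0549, 0.106, 0.0769 and 0.0698). That of Mertk-/-V2Tyro3-/-V2 over BL6J ended without BL6J_7 or BL6J_9 (limma adjusted p = 0.0610 and 0.0679), and over B6J_23 without B6J_23_1 or B6J_23_2 (limma adjusted p = 0.0602 and 0.0594). Tyro3-/-V1 over B6J_23 was called in each of these fits.

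Mertk was at 3222, 4113 and 2894 in the libraries labelled Mertk-/-V2Tyro3-/-V2, within the range of the C57BL/6 and Tyro3-/-V1 libraries, and the labels do not give the deleted part of the gene. Rpe65 in Mertk-/-V2Tyro3-/-V2 libraries was at 29656, 43865 and 25232, and it passed the test over B6J_23 (log2 -1.53, limma adjusted p = 0.0261) but not over BL6J (log2 -1.10, limma adjusted p = 0.0574); the difference between these 2 results was not tested. Over B6J_23 its limma adjusted p was 0.157 with the 2 groups alone, 0.0620 with the 9 libraries of the mark 23, and 0.0199 to 0.157 among fits that kept the Mertk-/-V2Tyro3-/-V2 libraries and left out 1 other library; with the double mutant libraries left out in turn it was 0.0783, 0.0182 and 0.0610. Over BL6J it was 0.0332 once the second of them was left out.

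For some gene lists the median had opposite signs against the 2 sets. The rod list had a median log2 fold change of -1.18 in Tyro3-/-V1 over BL6J and 0.37 over B6J_23. In Mertk-/-V2Tyro3-/-V2 it was -0.69 over BL6J and 0.80 over B6J_23. By library, the mean log2 level of the rod list was 11.72, 11.48 and 12.83 in Mertk-/-V2Tyro3-/-V2. It was 11.92, 13.17 and 12.93 in BL6J and 10.42, 11.79 and 11.61 in B6J_23, so Mertk-/-V2Tyro3-/-V2 overlapped both sets. The cell cycle list was at 0.64 in Tyro3-/-V1 over BL6J and -0.81 over B6J_23, and in Mertk-/-V2Tyro3-/-V2 at 0.23 over BL6J and -1.04 over B6J_23. The erythroid list was at 0.97 in Tyro3-/-V1 over BL6J and -0.64 over B6J_23, and in Mertk-/-V2Tyro3-/-V2 at 1.47 over BL6J and -0.34 over B6J_23. The type I interferon list, at 0.88 over BL6J and 0.81 over B6J_23 in Mertk-/-V2Tyro3-/-V2, kept its sign and nearly its size. Its mean log2 level differed between the Mertk-/-V2Tyro3-/-V2 libraries, at 9.81, 9.46 and 8.71. It was 8.16 to 8.57 in the C57BL/6 libraries and 8.22 to 8.67 in Tyro3-/-V1.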

How the data were processed

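The authors' deposited values are normalized counts per gene (a signal unit: reads divided by 1 size factor per library); STAR, DESeq2 and the builds GRCm38 and mm10 are named per the submitters' processing notes, without versions, and strandedness is not given in the sources used here. Values were whole multiples of 1 read (100% within 0.001), so whole reads were recovered. Kept genes had at least 10 in at least 3 libraries; 240 unnamed lines held at most 0.0203% of values.

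The main test was limma 3.58.1 (trend, robust, R 4.3.3) on log2(normalized count + 1), so fold changes understate low genes; adjusted p-values are Benjamini-Hochberg. edgeR 4.0.16 and DESeq2 1.42.0 ran on recovered reads. The labels do not say whether replicates are separate animals, so p-values measure the spread between these samples. Pseudogenes were matched to GENCODE M21 transcripts with blastn 2.17.0. Alternatives were other scalings, pseudocounts, filters, array weights and libraries left out. Members and lists were chosen with earlier results of these data known. Named genes were to be the 12 largest called differences each way (0 qualified), the 2 most abundant members of each list, and Mertk, Tyro3, Rpe65, Xist and the 5 most abundant genes of each set. Some items are not reported here. The tests were tested on simulated data.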

Additional observations from a re-analysis of the deposited data

How the results depend on the processing

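The count of genes past the adjusted threshold, 0 by limma, was 2694 by DESeq2, 7043 with array weights, 35 with the spread from 12 libraries, 32 with no filter, and 1 after TMM rescaling or scaling by library total; leaving out single libraries gave 0 to 5744, and 3060 to 8346 genes at an unadjusted p under 0.05 (9206 with array weights). Scaling by library total put the median log2 of all genes at 0.13 and turned the genes without overlap into 5049 higher and 1675 lower; leaving out libraries gave 3735 to 5736 higher and 3941 to 6126 lower. With a filter of 50, which kept 14397 genes, 170 processed pseudogenes were higher without overlap, against 566 of 1102 at the filter of 10. Fewer processed pseudogenes were tested at the filter of 50, so the count alone does not show whether their share changed. The main fit called 0 genes, so it held no call that another setting could oppose. No named gene was called in another setting with the sign opposite to its main log2 fold change. Some list medians did change sign. RPE identity went from -0.19 to 0.018 under quantile normalization, and melanocyte and Schwann cell genes from 0.11 to -0.091 without BL6J_7. Small RNAs went from -1.10 to 0.52 with a filter of 50.

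List medians under quantile normalization were visual cycle -0.065, RPE identity 0.018, melanin -0.069, phagocytosis -0.11, microglia -0.29, lymphocytes -0.55, mitochondrial 0.65, glycolysis 0.27, lysosome 0.0025, unfolded protein response -0.11, interferon -0.31, extracellular matrix 0.18 and small RNAs -1.32. Scaled by library total they were visual cycle -0.20, RPE identity -0.047, melanin -0.013, phagocytosis -0.046, fibroblasts 0.37, lymphocytes -0.18, glucocorticoid -0.039, circadian 0.21, hypoxia 0.24, respiratory chain 0.0020, glycolysis 0.27, fatty acid oxidation -0.068, lysosome 0.041, unfolded protein response -0.081, interferon -0.023, complement 0.29, extracellular matrix 0.26 and sex-linked 0.15. The sclera list was at 0.80 with array weights, lymphocytes at -0.71 and small RNAs at 0.52 with a filter of 50, and small RNAs at -0.68 with a pseudocount of 10. Leaving out libraries gave Müller glia 0.58 to 0.78, complement 0.021 to 0.22, extracellular matrix 0.040 to 0.15, melanin -0.16 to -0.092 and phagocytosis -0.23 to -0.11. The cause was not tested.

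No paired analysis was possible because the BL6J libraries carry the numbers 4 to 6 and the B6J_23 libraries 1 to 3. For the mutants over B6J_23, a fit of the 9 libraries with the mark 23 called 4 genes for Tyro3-/-V1 and 11 for Mertk-/-V2Tyro3-/-V2, and 5 and 744 with the replicate number as a block. Same-numbered libraries deviated together for the numbers 1 and 3 (r = 0.31 to 0.60) but not for number 2 (r = -0.24 to 0.063), so the numbers were not taken to pair the samples. Fits of 2 groups alone called 2 genes for Tyro3-/-V1 over BL6J, 3 over B6J_23, and 0 in both contrasts of Mertk-/-V2Tyro3-/-V2, and leaving out libraries gave 0 to 16, 3 to 9, 44 to 128 and 0 to 154 calls in the contrasts Tyro3-/-V1 over BL6J and over B6J_23, and Mertk-/-V2Tyro3-/-V2 over BL6J and over B6J_23. Depth limits genes near the filter: a normalized count of 10 stands for few reads, and fewer in BL6J.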
